A study of Mus musculus with 4 samples.

Results

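The genes described here are those of the mouse Fc gamma receptors, the cell-surface proteins that bind the Fc part of IgG, together with the signalling chain that they share. They were chosen by symbol: Fcgr1, Fcgr2b, Fcgr3, Fcgr4 and Fcer1g, 5 of the 32285 genes listed. None of the 5 was used to cluster or name the cells. The measurements come from droplet single-cell 3′ RNA sequencing of phagocytes sorted from mouse hearts, in 4 libraries with 1 library per condition and hearts pooled in each from 5 adult mice, males and females. The study asked how carboplatin, a platinum drug that crosslinks DNA, alters the resident macrophages of the heart. The first group received PBS by injection and, later, a saline pump. The second received carboplatin at 45 mg/kg, in 2 injections a week over 2 weeks, and a saline pump. The third received PBS and a pump with angiotensin II (1.5 mg/kg per day) and PE (50 mg/kg per day), called AngII/PE from here on. The fourth received carboplatin and AngII/PE. All 4 groups shared 4 weeks of recovery before the pump, 7 days of infusion, the pump itself and the sort. Strain, genotype and age in weeks were not given in the sources used here.

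Activating Fc gamma receptors carry IgG-bound particles into phagocytosis and trigger inflammatory signalling. They have no signalling tail of their own and depend on the common gamma chain, the product of Fcer1g, whose ITAM recruits the kinase Syk. Fcgr1 encodes CD64, the high-affinity receptor, a standard surface marker of tissue macrophages in the mouse. Fcgr3 and Fcgr4 encode low- to intermediate-affinity activating receptors, and Fcgr4 is typical of monocytes that patrol vessels. Fcgr2b encodes the inhibitory receptor, whose ITIM recruits the phosphatase SHIP, the product of Inpp5d.

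The sort selected cells with CD64 on their surface, along with CD45 and CD11b, no Ly6G and little Ly6C. Every Fcgr1 value below is therefore an mRNA level in libraries sorted for the protein that the gene encodes. In macrophage-like cells Ly6g had 0 UMIs in all 4 libraries, which allows at most 0.0528 to 0.122 CPM (UMIs of a gene per 1000000 UMIs), while Ptprc (CD45) lay between 572 and 842 CPM and Itgam (CD11b) between 183 and 210 CPM. The filters kept 4310, 3484, 3849 and 5669 cells in the order of the groups above, with median depths between 10593 and 12737 UMIs. Of these, 54.3%, 44.5%, 60.5% and 70.2% were macrophage-like, and another 15.01% to 19.02% carried macrophage markers in clusters left unnamed for their low UMI counts. Endothelial-like cells, which should lack CD64, made up 6.26% to 15.96%. Among the kept barcodes, 34 occurred in more than 1 library. With 1 library per condition no difference between conditions can be tested. The 95% intervals given cover counting error only, and pooled mice, library and treatment cannot be told apart.

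Of the 5 genes, 4 lie together on chromosome 1 (GENCODE M21, mm10). Fcgr2b spans 170958617 to 170976547 on the minus strand, Fcgr4 171018920 to 171029761 on the plus strand, Fcgr3 171051174 to 171064935 on the minus strand and Fcer1g 171229572 to 171234365 on the minus strand. Fcgr1 lies on chromosome 3 at 96282909 to 96293969, on the minus strand. All 5 are protein-coding. Fcgr2b and Fcgr3 are close relatives, and their transcripts share a run of 129 identical bases. Within the last 500 bases, where 3′ reads are meant to fall, the longest run that they share is 9 bases. Reads from there rest on sequence that differs, but where the reads of this pair fell was not examined. The antisense gene Gm38204 overlaps Fcgr2b, and reads of the pair cannot be told apart if strand was not used in counting. The snRNA gene Gm26110 lies inside Fcgr4 and the miRNA gene Mir6546 inside Fcgr3, each on the same strand, so reads that fall on either cannot be told apart from the receptor's by strand.

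In macrophage-like cells the common chain Fcer1g was the most abundant of the 5 in every library and Fcgr4 the least abundant. Counts from 3′ ends do not scale with transcript length, so levels of different genes can be set side by side within a library. Fcer1g stood at 1645, 1723, 2449 and 2805 CPM in the libraries of PBS with saline, carboplatin with saline, PBS with AngII/PE and carboplatin with AngII/PE, the order used for all lists of 4 values. Both AngII/PE libraries were above both saline libraries. Fcgr3, the most abundant receptor, stood at 548, 543, 754 and 830 CPM, with the saline pair nearly level. The inhibitory Fcgr2b stood at 359, 356, 398 and 421 CPM, the narrowest range of the 5. Fcgr1 stood at 179, 160, 234 and 282 CPM, lowest after carboplatin with saline and highest after carboplatin with AngII/PE. Fcgr4 stood at 72.01, 133, 142 and 198 CPM, and it alone had its lowest value far below the other 3 libraries.

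**Figure D1:**
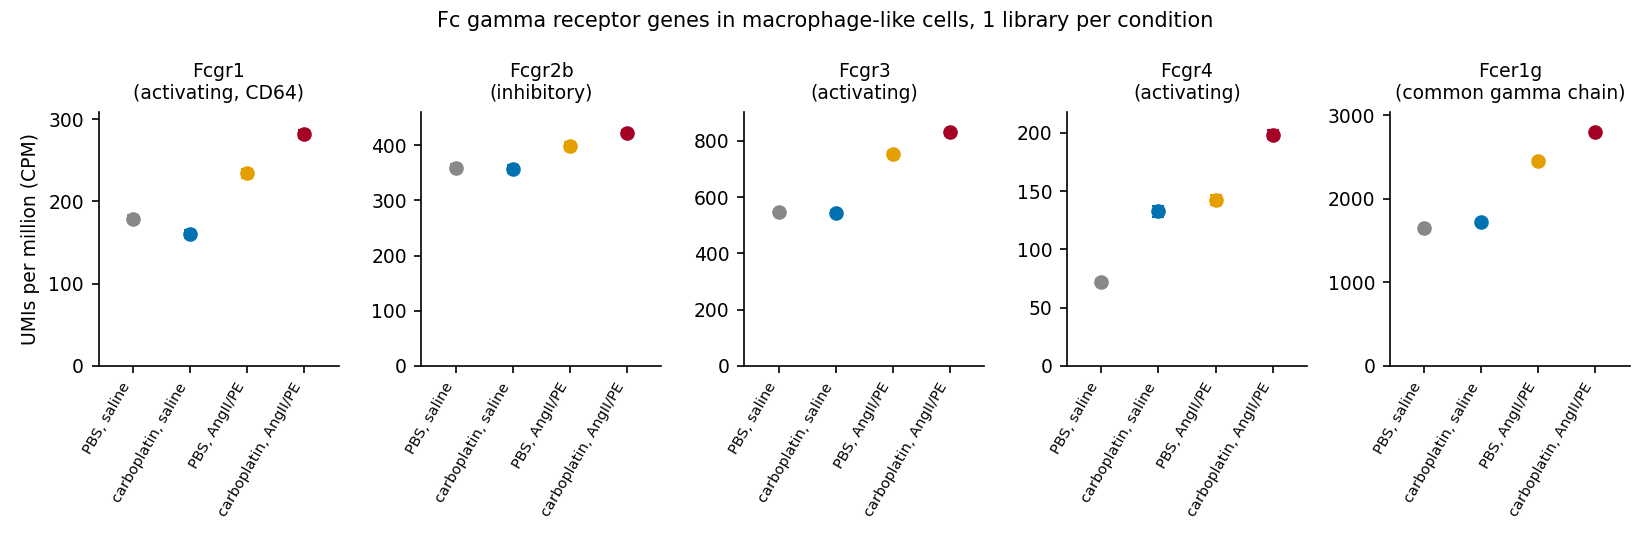
Levels of the 5 genes in macrophage-like cells, in CPM (vertical axes from 0, one scale per gene), 1 point per library with its 95% counting interval, mostly narrower than the point. Fcgr4 stands at 72.01 after PBS with saline and between 133 and 198 in the other libraries, whereas Fcgr2b lies between 356 and 421.

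Single cells spanned a wide range below these sums. In the PBS saline library the median macrophage-like cell held 5.11 Fcgr3 UMIs per 10000 UMIs, with quartiles of 3.32 and 7.06. For Fcer1g the median was 15.5, with quartiles of 11.5 and 19.8. The median for Fcgr4 was 0 in that library and 1.46 per 10000 UMIs after carboplatin with AngII/PE. The median cell thus had no Fcgr4 UMI in the first of these libraries and at least 1 in the second.

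The share of macrophage-like cells with at least 1 Fcgr1 UMI, with each cell thinned to 2000 UMIs, was 28.0%, 26.3%, 31.5% and 39.7%. With all UMIs it was 80.7%, 80.5%, 81.7% and 88.6%, at median depths of 13329 to 15457 UMIs. In endothelial-like cells the thinned share was 1.84%, 0.911%, 1.77% and 3.76%, at median depths of 5869 to 9909. Each macrophage-like share was above the share in endothelial-like cells of its library. Thinned shares for Fcgr4 were 12.4%, 19.4%, 22.2% and 30.2%, and those for Fcgr3 62.8%, 60.6%, 70.8% and 76.6%, each in the order of its CPM values. Thinning left out 10 to 24 cells per library that were too shallow. At that depth, 8.88%, 7.98%, 6.80% and 6.20% of cells held Fcgr1 without Fcgr3 or Fcgr4, and 1.85%, 1.43%, 1.04% and 0.202% held none of the 5 genes.

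Under saline, 1 of the 5 members, Fcgr4, differed after carboplatin by the size used to call a gene, at least 1.5-fold in either direction. It was 1.84 times as high (95% interval 1.75 to 1.94) as after PBS. The background over 8507 genes was 1.66% past that size upwards and 2.27% downwards, and Fcgr4 ranked at percentile 99.4 of all log2 ratios. The other members lay close to 1: Fcgr1 stood at a ratio of 0.895 (0.859 to 0.932), Fcgr2b at 0.991, Fcgr3 at 0.992 and Fcer1g at 1.05. The carboplatin saline library also lost the most barcodes to the mitochondrial filter, 43.2% against 22.7% to 31.1% in the others, and kept 49.4%, and the part of this in the ratios was not tested. Clustering at a finer resolution, which left a group of 1572 cells with macrophage markers unnamed, gave 2.57 for Fcgr4.

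Carboplatin under AngII/PE went with ratios above 1 for all 5 members, none past 1.5-fold. The background over all genes was 0.400% past 1.5-fold upwards and 1.06% downwards. Fcgr4 again had the largest ratio of the 5, at 1.39 (1.35 to 1.44) and percentile 99.2. Fcgr1 followed at 1.21 (1.17 to 1.24) and percentile 96.6, then Fcer1g at 1.15, Fcgr3 at 1.0998 and Fcgr2b at 1.06. The ratio for Fcgr1 was thus below 1 under saline and above 1 under AngII/PE. Split by sex from sex-linked UMIs, the saline ratio for Fcgr1 was 0.98 in cells called female and 0.81 in those called male, and that for Fcgr4 1.64 and 2.24.

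The higher Fcgr4 level after carboplatin was seen across macrophage-like clusters and not in 1 of them. Under saline the ratio was above 1 in 5 of 5 clusters with at least 20 cells in both libraries, from 1.33 to 2.004. In cluster 1, with 29 cells in each saline library, it was 1.88 (0.824 to 4.66), an interval that includes 1. Under AngII/PE it was above 1 in 7 of 7, from 1.14 to 2.17. In the cluster with markers of resident macrophages (Timd4, Lyve1, Folr2 and Cd163 among them), Fcgr4 stood at 68.4 CPM after PBS with saline, in 1748 cells, and at 122 after carboplatin with saline, in 828 cells. Fcgr1 in the same cells stood at 176 and 157 CPM, and its ratio was above 1 in 1 of 5 clusters under saline and in 6 of 7 under AngII/PE.

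AngII/PE went with higher levels of all 5 members on both backgrounds in the sum over macrophage-like cells. The class was made of different clusters under the pumps: the resident-like cluster held 74.64% and 53.35% of it in the saline libraries and 3.69% and 1.06% in the AngII/PE libraries, while cluster 1, led by Ccl8 and Fcrls, held 1.24%, 1.87%, 25.98% and 37.58%. The comparison after PBS shares its saline library with the carboplatin comparison, so the values are only set side by side. After PBS, Fcgr4 was 1.98 times as high (1.88 to 2.08), Fcer1g 1.49 times (1.47 to 1.50), Fcgr3 1.38 times, Fcgr1 1.31 times (1.26 to 1.35) and Fcgr2b 1.11 times. Only Fcgr4 passed 1.5-fold, with Fcer1g just short of it, against 8.21% of all genes higher and 8.24% lower. After carboplatin, Fcgr1 was 1.76 times as high (1.70 to 1.82), Fcer1g 1.63 times, Fcgr3 1.53 times (1.50 to 1.56), Fcgr4 1.49 times (1.44 to 1.55) and Fcgr2b 1.18 times. There 3 members passed, with Fcgr4 just short, against 8.64% of all genes higher and 7.55% lower. Fcgr2b had the smallest ratio in both comparisons.

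Within clusters the AngII/PE ratios varied. In the resident-like cluster after PBS, Fcgr1 stood at a ratio of 1.01 (0.872 to 1.16) and Fcgr4 at 1.196 (0.961 to 1.47), both below their ratios in the summed class and with intervals that include 1. Fcgr3 stood at 1.64 (1.54 to 1.75) in the same cells. After carboplatin, Fcgr1 in that cluster stood at 1.41 (1.18 to 1.67) and Fcgr4 at 1.45 (1.19 to 1.75). In the MHC class II-like cluster, Fcgr4 stood at 1.38 after PBS and 1.46 after carboplatin. The ratios of Fcgr4 were largest in cluster 1, at 5.21 (2.74 to 11.4) and 3.64 (2.37 to 5.88), against 29 cells in each saline library. How much of each summed ratio comes from the differing clusters was not tested.

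**Figure D2:**
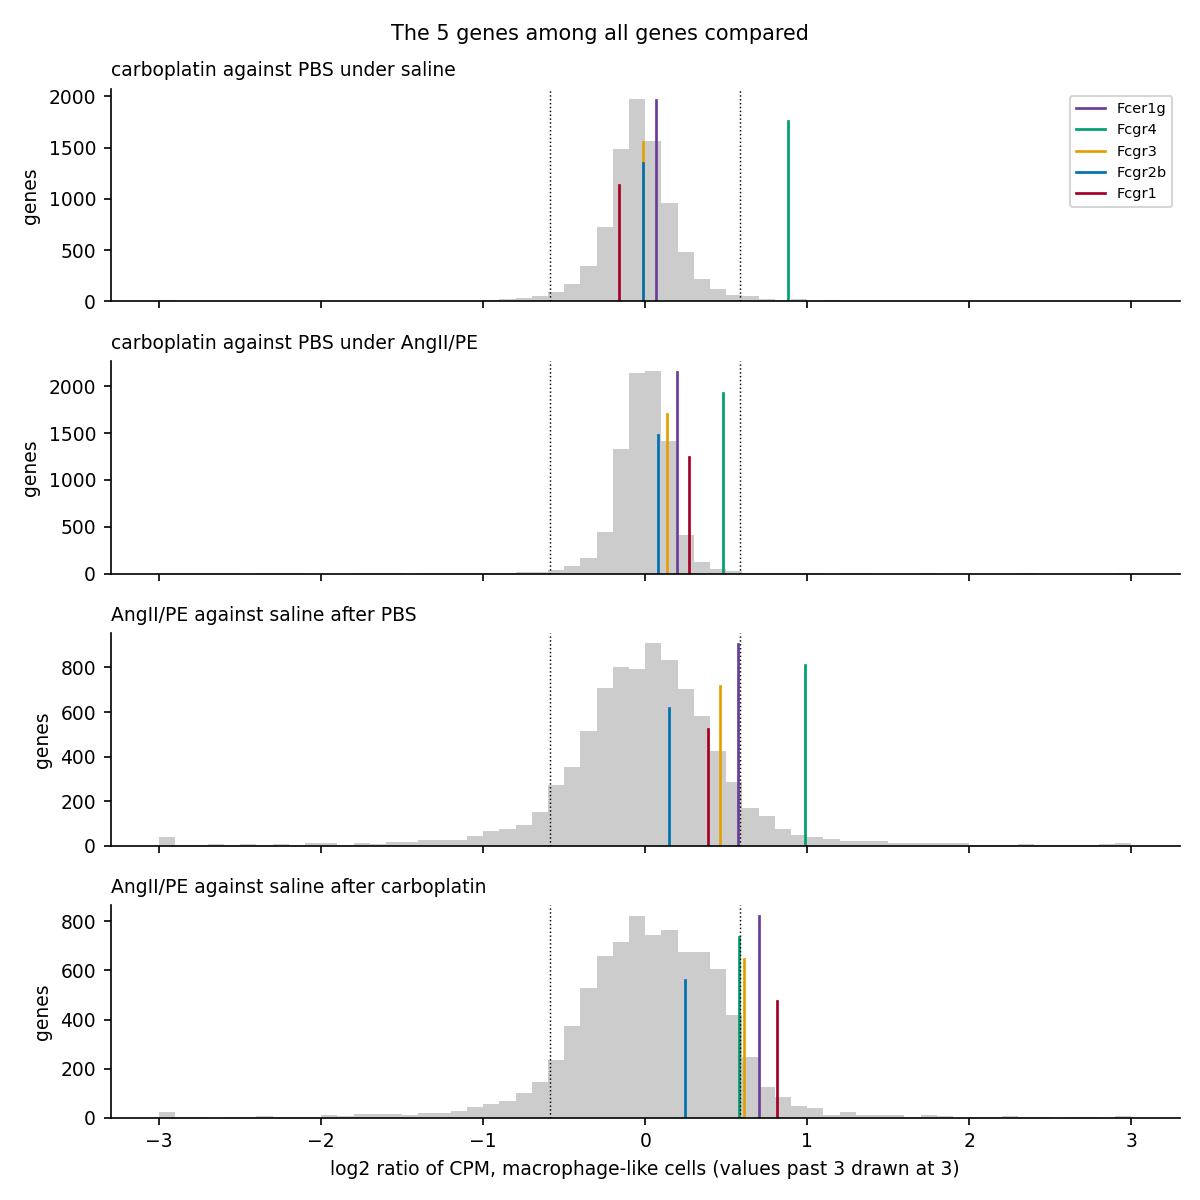
Grey bars count the 8507 genes by the log2 ratio of CPM in macrophage-like cells (horizontal axis) for each comparison, coloured lines mark the 5 members (line height carries no meaning), and dotted lines mark 1.5-fold. Fcgr4 lies at the far right of both carboplatin comparisons (log2 ratios of 0.88 and 0.48), and all 5 lie right of 0 in both AngII/PE comparisons.

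The sexes were not equally mixed, with 30.3% of sex-called cells female after PBS with AngII/PE against 47.1% to 49.7% in the other libraries. For AngII/PE after PBS, the ratio of Fcgr1 was 1.65 in cells called female and 1.11 in those called male, and that of Fcgr3 1.13 and 1.64. Transcripts of dissociation and immediate-early stress summed to 13951, 10613, 8907 and 9098 CPM. Of 20 such genes, 11 were at least 1.5-fold lower with AngII/PE after PBS, against 8.24% of all genes. The gene Gm42418, which leads cluster 7, stood at 11406, 17519, 5374 and 2109 CPM. In that cluster the AngII/PE ratios after PBS were below 1 for all 5 members, with Fcer1g at 1452, 1627, 772 and 990 CPM. Without cluster 7 the AngII/PE ratios after PBS were 2.03 for Fcgr4 and 1.50 for Fcer1g. The part of stress, sex and this cluster in the results was not tested.

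Among macrophage-like clusters, Fcgr1 was by far highest in the one named for interferon markers (all 8 of the list, led by Ifit3, Ifit2 and Ifit1). There it stood at 872, 673, 898 and 848 CPM, in 26, 19, 83 and 189 cells. In the other macrophage-like cells of the same libraries it stood at 170, 154, 207 and 252 CPM. The ratio was 5.12 (4.58 to 5.70), 4.38 (3.79 to 5.04), 4.33 (4.06 to 4.61) and 3.37 (3.23 to 3.52), so every library showed it with intervals far from 1. Fcgr4 stood at 205, 367, 386 and 442 CPM in this cluster, 2.38 to 2.92 times the level in the others. Fcgr2b was level, at 0.921 to 1.05 times, and Fcgr3 lower, at 0.698 to 0.881 times. Fcer1g was slightly higher, at 1.07, 1.26, 1.23 and 1.17 times, and only the interval after PBS with saline included 1. As clusters are drawn from the expression of the same cells, these ratios are a description and not a test.

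**Figure D3:**
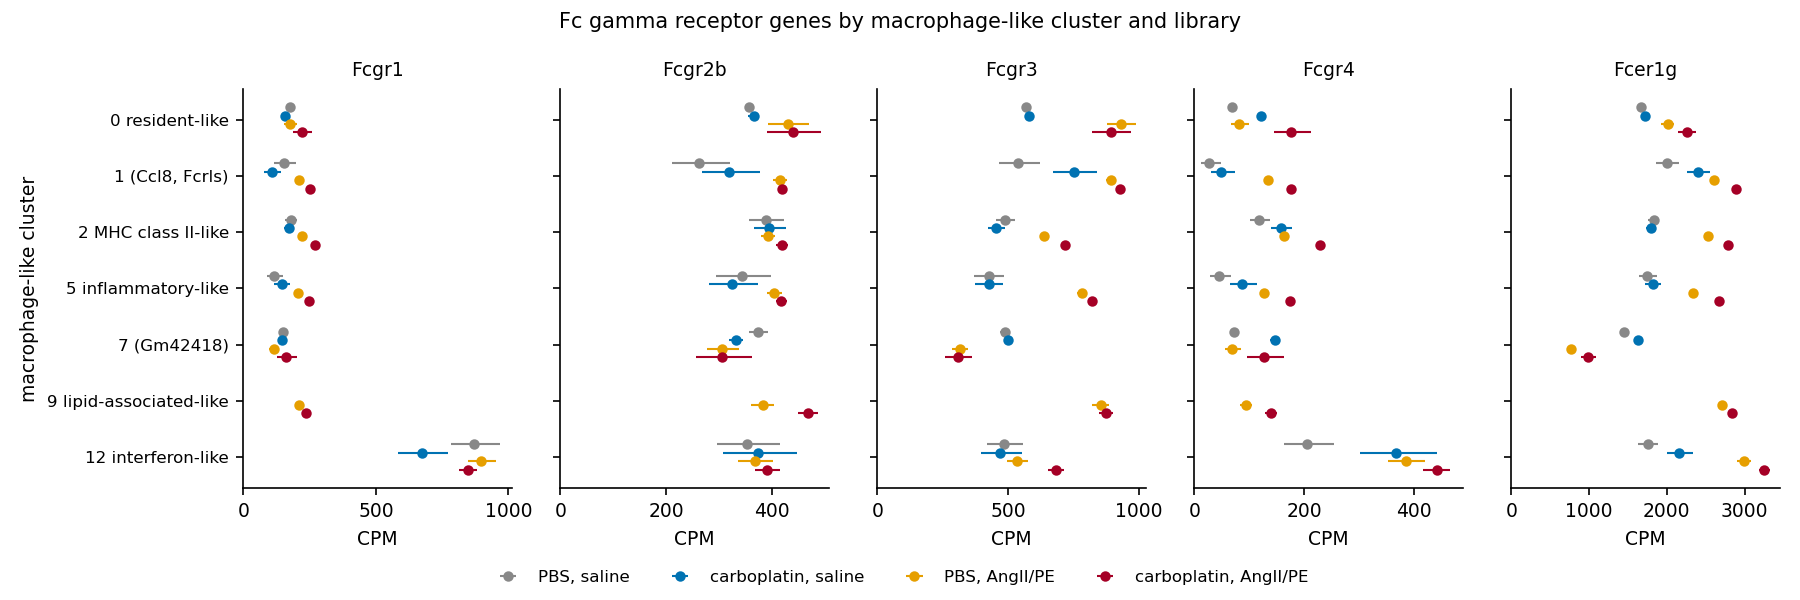
Level of each gene (CPM, horizontal axes from 0) in each macrophage-like cluster (rows), 1 point per library with at least 19 cells, bars showing 95% counting intervals. In the interferon-like cluster at the bottom Fcgr1 lies between 673 and 898 CPM and Fcgr4 between 205 and 442, while Fcgr2b lies between 353 and 392.

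This cluster made up 1.11%, 1.22%, 3.56% and 4.75% of macrophage-like cells, and held 5.95%, 5.28%, 14.7% and 15.2% of their Fcgr1 UMIs. Left out, the AngII/PE ratio for Fcgr1 was 1.22 after PBS and 1.64 after carboplatin. For Fcgr4 it was 1.89 and 1.43, and its carboplatin ratios were 1.84 under saline and 1.397 under AngII/PE. Within the cluster Fcgr1 was level between PBS and carboplatin under AngII/PE, at a ratio of 0.944 (0.880 to 1.01).

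The promoters of the 2 receptor genes that were high in the interferon-like cluster are shown because each holds a sequence of a kind through which interferon-activated factors are known to act. All 5 genes were found in the promoter table (RefSeq, GRCm38.p6, 250 bases before to 50 after the start), and 3 motifs were searched on both strands: the gamma-activated site TTCNNNGAA, the core of the interferon-stimulated response element (GAAA and GAAA with any pair of bases between them), and the PU.1-type core AGGAAG. Matches are in capitals, read 5′ to 3′ on the strand of the gene, and the last of these motifs appears as its reverse complement. Fcgr1 is from the minus strand at chr3:96293920-96294219 and Fcgr4 from the plus strand at chr1:171018676-171018975.
Fcgr1: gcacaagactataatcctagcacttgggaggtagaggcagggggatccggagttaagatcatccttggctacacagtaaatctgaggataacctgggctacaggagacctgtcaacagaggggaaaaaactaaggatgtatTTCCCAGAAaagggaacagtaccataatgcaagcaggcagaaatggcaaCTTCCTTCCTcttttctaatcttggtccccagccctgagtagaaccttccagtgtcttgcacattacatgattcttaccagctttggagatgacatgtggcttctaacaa
Fcgr4: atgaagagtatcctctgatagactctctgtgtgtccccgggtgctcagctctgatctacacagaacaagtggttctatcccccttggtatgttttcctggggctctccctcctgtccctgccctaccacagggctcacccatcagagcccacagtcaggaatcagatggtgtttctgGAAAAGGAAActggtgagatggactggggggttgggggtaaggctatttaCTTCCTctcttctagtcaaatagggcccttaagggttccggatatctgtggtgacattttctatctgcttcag
The Fcgr1 window holds 1 gamma-activated site, TTCCCAGAA, starting 109 bases before the gene's start, and 2 overlapping PU.1-type cores. The Fcgr4 window holds 1 response element core, GAAAAGGAAA, starting 73 bases before the start, and 1 PU.1-type core. Neither of the interferon motifs occurs in the windows searched for Fcgr2b, Fcgr3 or Fcer1g. Fcer1g still stood at 1.07 to 1.26 times in the interferon-like cluster, so higher levels there were not limited to genes with such a motif. Fcgr3 has 2 entries in the promoter table, and only the first was searched. Its window, 171059354 to 171059653, lies inside the gene's span given above, so the absence does not cover its other start. Over 27025 promoters, 8.47% hold the gamma-activated site, 3.49% the response element core and 35.1% the PU.1-type core. A match describes the letters and is not evidence of binding.

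The balance of activating to inhibitory receptor UMIs (Fcgr1, Fcgr3 and Fcgr4 against Fcgr2b) in macrophage-like cells was 2.22 (2.17 to 2.27), 2.35 (2.29 to 2.41), 2.84 (2.78 to 2.90) and 3.11 (3.06 to 3.15). It was higher with AngII/PE on both backgrounds and higher after carboplatin under both pumps. Some clusters went the other way. In the lipid-associated-like cluster 9 under AngII/PE it was 2.66 (2.53 to 2.796) with carboplatin, lower than the 3.02 (2.83 to 3.23) with PBS. In cluster 7 it was 1.89, 2.38, 1.62 and 1.93, lower in the AngII/PE libraries. In the whole class, with the sorted Fcgr1 left out, it was 1.72, 1.90, 2.25 and 2.44, the same order. Fcgr4 made up 9.02%, 15.9%, 12.6% and 15.1% of the activating UMIs and Fcgr3 68.6%, 65.0%, 66.7% and 63.3%. Fcer1g UMIs per activating receptor UMI hardly differed, at 2.06, 2.06, 2.17 and 2.14. In the interferon-like cluster the balance was 4.42 after PBS with saline, 4.94 after PBS with AngII/PE and 5.03 after carboplatin with AngII/PE. Fcgr1 was there the leading activating receptor, with 55.9%, 49.4% and 43.0% of activating UMIs in those 3 libraries.

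**Figure D4:**
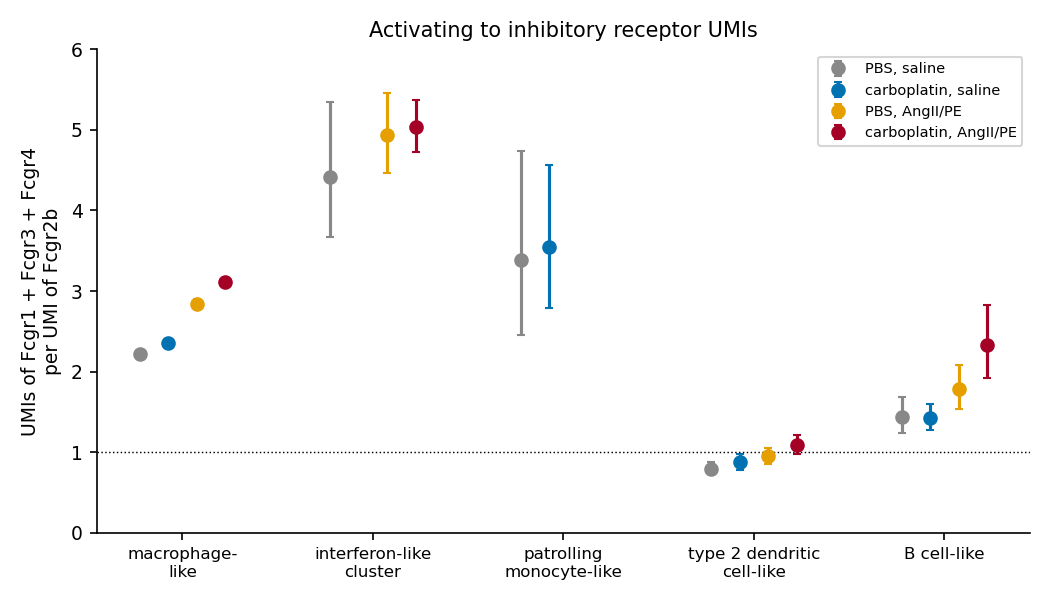
UMIs of Fcgr1, Fcgr3 and Fcgr4 per UMI of Fcgr2b (vertical axis from 0) in 5 groups of cells, 1 point per library with at least 20 cells, bars showing 95% counting intervals. Macrophage-like cells lie between 2.22 and 3.11, the interferon-like cluster between 4.42 and 5.03, and type 2 dendritic cell-like cells between 0.797 and 1.09.

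Across cell classes, Fcgr1, Fcgr2b and Fcgr3 were highest in macrophage-like cells in all 4 libraries among classes with at least 20 cells. With the libraries summed, barcodes named cardiomyocyte-like ranked 2 for these genes, at 191, 338 and 577 CPM. Fcgr4 was highest in patrolling monocyte-like cells (Treml4, Itgal, Adgre4 and Cd300e among their markers) in the 2 libraries that held enough of them. There it stood at 359 CPM in 42 cells after PBS with saline and 349 CPM in 56 cells after carboplatin with saline, against 72.01 and 133 CPM in macrophage-like cells. Fcer1g, at 2346 and 2410 CPM, was also above its macrophage level in both, while Fcgr1 stood at 54.7 and 78.6 CPM. Fcgr4 formed 62.1% and 62.6% of their activating receptor UMIs, and the balance to Fcgr2b was 3.38 and 3.55. Under AngII/PE each library had 3 of these cells, too few for a level. After PBS with AngII/PE, Fcgr4 was highest in neutrophil-like cells among classes with at least 20 cells. It stood there at 162 CPM (113 to 225) in 23 cells, against 142 CPM in macrophage-like cells.

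Type 2 dendritic cell-like cells, named from markers such as Cd209a and Dpp4, held fewer activating receptor UMIs per inhibitory UMI than macrophage-like cells. Fcgr2b stood at 304, 307, 332 and 342 CPM, close under the macrophage level. Fcgr1 stood at 23.1, 26.8, 74.3 and 87.3 CPM and Fcgr3 at 206, 212, 193 and 231 CPM, both far below the macrophage level. Fcgr4 was also below it, at 12.7, 29.7, 48.9 and 53.8 CPM. Activating to inhibitory UMIs came to 0.797, 0.875, 0.953 and 1.09, below the macrophage value in every library. Each member was higher in macrophage-like than in type 2 dendritic cell-like cells in 4 of 4 libraries, and the mean log2 difference ± SD over the libraries was 0.25 ± 0.04 for Fcgr2b and 2.08 ± 0.55 for Fcgr1. An exact two-sided sign-flip test over 4 libraries gave p = 0.13 for each, the smallest that it allows, and 0.167 after Benjamini-Hochberg adjustment over 40 tests, so no class difference could reach 0.05.

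**Figure D5:**
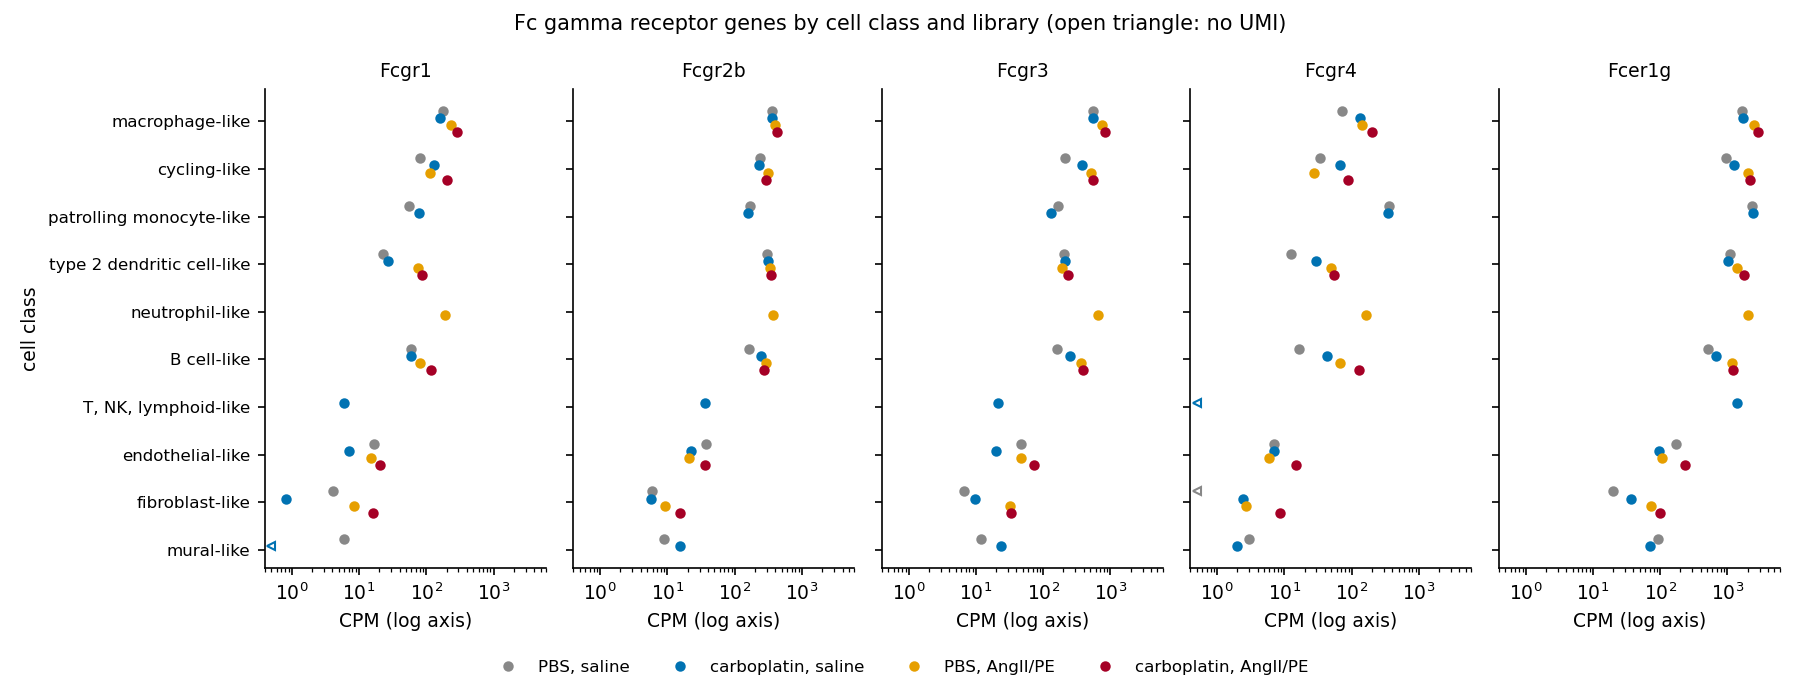
Level of each gene (CPM, log axis) by cell class (rows), 1 point per library with at least 20 cells of the class, open triangles where no UMI was found. The cardiomyocyte-like and unnamed classes are not drawn. Fcgr4 is highest in patrolling monocyte-like cells (349 and 359 CPM), Fcgr2b is nearly level between macrophage-like and type 2 dendritic cell-like cells, and endothelial-like cells lie far to the left for all 5.

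Free RNA from macrophages, or a macrophage caught in the same droplet, can put UMIs of these genes into other cells, and either keeps the genes of 1 source in 1 ratio. Members were therefore set against the UMIs of C1qa, C1qb and C1qc, complement genes that macrophages express strongly. In endothelial-like cells the member to C1q ratio was 0.703 to 1.22 times that of macrophage-like cells over all 5 members and 4 libraries. Their levels, 7.02 to 20.3 CPM for Fcgr1, are not read as expression of their own, and free RNA and doublets cannot be told apart here. In cardiomyocyte-like cells the ratio was 0.810 to 1.68 times that of macrophage-like cells, and their levels are not read as their own either. In B cell-like cells, 4 members lay at 0.740 to 1.42 times the macrophage ratio. Fcgr2b, the Fc gamma receptor that B cells are known to express, lay at 1.52, 1.59, 1.59 and 1.41 times, with levels of 164, 245, 288 and 274 CPM. In the unnamed cells Fcgr2b lay at 1.70, 1.82, 1.57 and 1.56 times, so such an excess is not particular to B cell-like cells. Whether it is expression of their own was not tested. In type 2 dendritic cell-like cells the ratio for Fcgr2b was 3.35 to 6.75 times that of macrophages, while for Fcgr1 it was 0.706, 0.650, 2.57 and 2.46 times, with both saline values below 1 (0.564 to 0.884 and 0.498 to 0.849). In patrolling monocyte-like cells Fcgr4 lay at 183 (138 to 242) and 27.2 (23.1 to 32.1) times, over only 96 and 636 C1q UMIs. All 5 members were above the macrophage ratio there, with Fcgr1 at 11.2 and 5.08 times and Fcer1g at 52.4 and 14.5 times.

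In T, NK and innate lymphoid-like cells Fcer1g was the most abundant of the 5. In the carboplatin saline library, the only one with at least 20 T, NK and innate lymphoid-like cells, Fcer1g stood at 1370 CPM in 35 cells, and 79.4% of the thinned cells held a UMI. Fcgr1 stood at 5.99, Fcgr2b at 36.0 and Fcgr3 at 20.98 CPM there, and Fcgr4 had no UMI, which allows up to 8.99 CPM (3 counts). The Fcer1g to C1q ratio was 39.9 times that of macrophages. For Fcgr2b it was 5.07 times (2.76 to 9.30), from 12 UMIs, and for Fcgr3 1.94 times (0.894 to 4.19). The markers of this cluster included Gzma, Nkg7 and Ncr1, genes of cytotoxic lymphocytes, in which the common gamma chain is known to serve other receptors. Neutrophil-like cells passed 20 cells in 1 library only, with C1q at 9133 CPM and all 5 members at 1.23 to 1.73 times the macrophage ratio.

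Genes whose levels followed the members most closely were found over 34 class-by-library sums, by Pearson correlation of log2 CPM among 7692 genes, as a description. For Fcer1g the closest was Tyrobp (r = 0.988), the other ITAM adaptor of myeloid cells, then Il10ra, Tnfaip8l2, Otulinl and Laptm5. For Fcgr1 they were Fcgr3 (0.959), Adgre1 (0.957), P2ry6, Aif1 and Csf1r, and for Fcgr3 Ms4a6d (0.976), P2ry6, Unc93b1, C5ar1 and Aif1. For Fcgr4 they included Lst1 (0.971), Clec4a1, Clec4a3 and Pla2g7, and for Fcgr2b they were Rbm47 (0.983), Ctss, Evi2a, Ncf1 and Clec12a. The sums share libraries, and the contrast of phagocytes with other cells runs through all of them.

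Of 27 measured genes of activating Fc receptor signalling, 1 was at least 1.5-fold higher after carboplatin under saline (Fgr, a Src-family kinase, at 1.54) and none under AngII/PE. With AngII/PE, 3 were higher and 1 lower after PBS, and 0 higher and 1 lower after carboplatin. Over all genes, 1.66% were higher and 2.27% lower after carboplatin under saline, and 0.400% and 1.06% under AngII/PE. For AngII/PE against saline the shares were 8.21% and 8.24% after PBS, and 8.64% and 7.55% after carboplatin. Fgr stood at 27.6, 42.4, 79.0 and 52.8 CPM. The list's median log2 ratio lay between -0.04 and 0.16, against -0.03 to 0.04 over all genes. Syk itself stood at 224, 243, 214 and 196 CPM.

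On the inhibitory side, 15 genes were measured, of which 3 were at least 1.5-fold higher and 1 lower with AngII/PE on each background. Of all genes, 8.21% were higher and 8.24% lower after PBS, and 8.64% and 7.55% after carboplatin. Cd72, an ITIM receptor, stood at 115, 177, 403 and 427 CPM and the adaptor Dok3 at 65.4, 83.8, 155 and 164 CPM, both higher in the AngII/PE libraries. Dok2 stood at 127, 90.7, 25.9 and 37.3 CPM, lower in both. After carboplatin, 1 of the 15 was higher under saline (Cd72, 1.54) and none under AngII/PE, against 1.66% and 0.400% of all genes. Of other genes for Fc binding, 3 of 13 were measured: Fcrls, a receptor-like gene of macrophages, stood at 247, 188, 504 and 694 CPM, and Fcgrt, which encodes the neonatal Fc receptor, at 318, 239, 198 and 219 CPM.

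The list of other receptors tied to Fcer1g or to the adaptor Tyrobp showed the largest differences of the lists with AngII/PE. It also holds Tyrobp itself and the adaptor gene Hcst. Of 16 measured genes, 11 were at least 1.5-fold higher and 1 lower after PBS (median log2 ratio 1.19), and 9 higher and 1 lower after carboplatin (0.68). Of all genes, 8.21% were higher and 8.24% lower after PBS, and 8.64% and 7.55% after carboplatin. Trem2, a lipid-sensing receptor, stood at 143, 138, 582 and 682 CPM. Clec4e, the receptor Mincle, stood at 7.03, 8.04, 44.4 and 30.6 CPM, and Cd300lf at 3.12, 4.74, 38.8 and 30.6 CPM. All 3 were far above saline in both AngII/PE libraries. Trem2 is also a marker of the lipid-associated list, and Clec4e and Clec4d are among the leading genes of clusters that held at most 34 cells in either saline library. The chains themselves differed less, as Tyrobp stood at 1376, 1449, 1902 and 2059 CPM.

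Genes of the interferon gamma response, a known inducer of Fcgr1 and Fcgr4, were higher after carboplatin under saline in 8 of 19 measured, with none lower and a median log2 ratio of 0.42. Of all genes, 1.66% were higher and 2.27% lower in that comparison. Gbp2, a guanylate-binding protein gene, stood at 24.2, 48.5, 27.9 and 37.1 CPM and Gbp8 at 6.67, 13.3, 8.60 and 15.2 CPM, higher after carboplatin under both pumps. After carboplatin under saline Fcgr4 was higher too, whereas Fcgr1 was not, and a link to these genes was not tested. Under AngII/PE, 1 of 19 was higher after carboplatin (Gbp8, 1.77), against 0.400% of all genes, with a median of 0.08. With AngII/PE, 2 were higher and 1 lower after PBS, and 1 higher and 3 lower after carboplatin. The shares over all genes were 8.21% and 8.24% after PBS, and 8.64% and 7.55% after carboplatin. The list's median log2 ratios were -0.002 and -0.17, while Fcgr1 and Fcgr4 were higher in both comparisons. Of 7 complement receptor genes, 1 was higher and 1 lower after carboplatin under saline, Itgax at 2.04 and Vsig4 at 0.242 times.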

How the data were processed

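The data are deposited UMI counts per gene and cell barcode, whole numbers made by the authors with Cell Ranger 7.1.0 per the file headers (version 3 per the labels' protocols) on mm10, after which they used Seurat (3.2.3 per the labels' protocols, 4 per the submitters' processing notes). For intron counting and the strand setting, the sources used here give nothing. Of 27968 barcodes (the series' own text states 38066 before and 17438 after filters), 17312 with more than 500 and fewer than 7000 genes, fewer than 30000 UMIs and under 10% mitochondrial UMIs were kept. Depth was 10593 to 12737 median UMIs per kept cell. Scrublet (scanpy 1.11.5) marked 49 cells (0.283%), too few to have worked, so no doublets were removed.

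Cells were clustered without the 5 members (R 4.3.3, Seurat 5.3.0, sctransform 0.4.2, 80 principal components, resolution 0.6, 23 clusters) and named "-like" from 23 marker lists. A class needed at least 60% of its list, and 3 genes, at 2-fold over other clusters. These naming thresholds were set after seeing the clusters, and rebuilt names may differ from those of the study. Unnamed clusters with macrophage markers and under 50% of their library's median UMIs stayed out of the macrophage-like class. Counts were summed per class and library and divided by the summed UMIs (CPM). Exact Poisson, conditional binomial and Clopper-Pearson intervals (scipy 1.17.1) have a level of 95% and cover counting error only. Ratios were compared over genes that averaged 10 CPM or more, and "called" means past 1.5-fold. Ratio intervals were checked on simulated counts. Likeness used log2(CPM + 5), a scale computed here from the deposited counts, among genes that averaged 20 CPM or more. Between classes, exact sign-flip tests ran over libraries with at least 20 cells of both.

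From each gene list the 4 with the largest ratio in a comparison could be named. Syk and Tyrobp were named outside that rule, after their values were seen. A gene that the rule for likeness would name is not reported here. The members and lists were chosen with earlier results of these data known. Alternatives changed normalization, resolution, filters, thinning and the cells included, and those that left out or split macrophage-like clusters, left out shared barcodes or took every kept cell were chosen after seeing the data.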

Additional observations from a re-analysis of the deposited data

Results flagged for a closer look

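For Fcgr1, the gene of the sorted CD64, the carboplatin to PBS ratio in macrophage-like cells pointed in opposite directions under the pumps. It was 0.895 (0.859 to 0.932) with saline, against 1.21 (1.17 to 1.24) with AngII/PE. The second ratio was 1.35 times the first. With 1 library per condition this difference was not tested. The other 4 members had no such crossing beyond their counting intervals. The saline ratio for Fcgr1 was lower in cells called male than in those called female, as given above. Of sex-called cells, 30.3% were female after PBS with AngII/PE and 49.0% after carboplatin with AngII/PE. The part of sex in the Fcgr1 ratios was not tested.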

How the results depend on the processing

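No paired analysis was possible because each condition has 1 library. With AngII/PE after PBS, 1 member was at least 1.5-fold higher as reported (8.21% of all genes), but 2 were with log-normalised clustering (8.90%), resolution 1.2 (9.54%), at least 1000 genes per cell (8.53%) and every kept cell (7.46%), and 3 were in cells called female (8.70%) and in cells called male (11.9%). With carboplatin under AngII/PE, 1 member passed in cells called female (1.46% of all genes) against 0 as reported (0.400%). Within macrophage-like cluster 7, led by Gm42418, all 5 AngII/PE ratios after PBS were below 1, from 0.532 for Fcer1g to 0.942 for Fcgr4. After carboplatin 4 of 5 were: Fcer1g 0.608, Fcgr3 0.615, Fcgr4 0.860 and Fcgr2b 0.922. The cause was not tested.

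The activating to inhibitory balance after PBS with saline was 2.17 at resolution 1.2, 2.28 without the Gm42418 cluster, 2.07 over every kept cell and 1.72 without Fcgr1. After carboplatin with saline it was 2.43 with log-normalised clustering, 2.18 over every kept cell and 1.90 without Fcgr1. After PBS with AngII/PE it was 2.90 with log-normalised clustering, 2.92 at resolution 1.2, 2.76 both with the unnamed clusters and without the interferon-like cluster, 2.65 over every kept cell and 2.25 without Fcgr1. After carboplatin with AngII/PE it was 3.06 with the unnamed clusters, 3.014 without the interferon-like cluster, 3.00 over every kept cell and 2.44 without Fcgr1. The order of the 4 libraries was the same over every kept cell and without Fcgr1.

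The share of cells with an Fcgr1 UMI was 46.5%, 45.1%, 51.3% and 61.4% at 4000 UMIs per cell and 80.7%, 80.5%, 81.7% and 88.6% with all UMIs, so it depends on depth. By single libraries, macrophage-like cells ranked 1 of the classes for Fcgr4 after carboplatin with AngII/PE, and 1 for Fcer1g in both AngII/PE libraries, where patrolling monocyte-like cells were under 20. For Fcgr4 after PBS with AngII/PE, neutrophil-like cells ranked above them. Removing the cells with the 6% highest Scrublet scores, removing shared barcodes, and keeping the members in the clustering each left all 40 values within their limits.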
